A study of Mus musculus with 12 samples.

Results

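The inhibitory synapse genes described here are the receptors for GABA and glycine, the proteins that hold those receptors at the postsynaptic membrane, the transporters that set the chloride gradient, and the enzymes and carriers that clear GABA. The set was named gene by gene and holds 28 genes, of which 25 were analysed above the lesion, 21 below it and 21 at both sites. These stand among 13647 genes above the lesion, 12338 below it and 12025 at both. GABRA2, GABRG1, CLPTM1 and GABARAP were analysed above the lesion only, and GABRD, NLGN2 and IQSEC3 were not analysed here. RNA-seq was made on short segments of spinal cord taken from male mice that expressed the human ApoE4 variant and received a contusion at thoracic vertebra 9 at 4 months of age. At 14 days post-injury, 3 libraries were made for each of 4 groups: mice with 2 normal synj1 alleles (synj1+/+) above the lesion, mice with 1 inactive synj1 allele (synj1+/-) above the lesion, and the same genotypes below the lesion. All 12 libraries came from injured ApoE4 cord, and the uninjured and ApoE3 groups of the study were not analysed here. The genotypes were compared within each site to ask how fewer synj1 alleles alter the injured ApoE4 cord. With 3 mice per genotype used for RNA-seq and 3 libraries per genotype at each site, the segments above and below would come from shared mice, although the labels tie no library to a mouse.

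GABA and glycine are the main fast inhibitory transmitters of the spinal cord. GABA-A receptors and glycine receptors are chloride channels built of several subunits, whereas GABA-B receptors are a pair of G protein-coupled subunits that act more slowly through potassium and calcium channels. Whether an open chloride channel hyperpolarizes a neuron depends on its internal chloride, which SLC12A5 (KCC2) lowers and SLC12A2 (NKCC1) raises. In the cord, this inhibition limits spread of sensory input and shapes the alternation of motor neurons during stepping, and its loss after SCI has been linked to spasticity and pain.

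Each value below is the authors' single FPKM (fragments per kilobase, scaled to library size by the upper quartile) for a group of 3 libraries. No spread between libraries can be computed from it, so no difference was tested and no p-value is given. Where 2 FPKM values are given for a site, the first is from the libraries labelled synj1+/+ and the second from those labelled synj1+/-. A ratio is the log2 of the second over the first, each with 1 added, a scale that understates the difference of low genes, and a gene is called higher or lower at 1.2-fold, a log2 ratio of 0.263. Percentiles rank a gene's log2 ratio among all genes of its site. The targeted gene went against the labels: SYNJ1 was higher with the synj1+/- label at both sites, at 1904 and 2403 above the lesion (log2 ratio 0.34) and at 1846 and 2592 below it (0.49). Every direction given here therefore follows labels that the level of SYNJ1 goes against, and if the genotype labels were exchanged each log2 ratio would keep its size and change its sign, so that genes given as higher would be lower. The reason for the level of SYNJ1 was not tested. Neuron markers were present in all 4 groups, with a summed FPKM from 18285 to 23298 over the 14 of 16 analysed above and the 11 analysed below the lesion, and 0 of them were at 0.

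The promoters of genes that were higher below the lesion differed widely in base composition, with 0 to 37 CG dinucleotides. Those of the other 10 genes analysed there with a matched start site also did, with 8 to 34. In both sets, some of the promoters hold bases of an annotated exon. RefSeq start sites on the GRCm38.p6 assembly were matched for 24 of the 28 genes, and the 250 bases before the first listed start were read for each. The 5 sequences shown belong to genes called higher below the lesion whose window holds 0 bases of an annotated exon, and are printed to show how unlike they are. They lie at chr7:57510060-57510309 (minus strand, inside the annotated span of GABRA5), chrX:72656920-72657169 (minus strand, directly before GABRA3), chrX:165327394-165327643 (minus strand, inside the annotated span of GLRA2), chr8:55940168-55940417 (plus strand, directly before GLRA3) and chr6:113195385-113195634 (minus strand, directly before LHFPL4). Each is written 5′ to 3′ on the strand of its gene, with every CG dinucleotide in capitals. For GABRA3 and GLRA3, the bases at the listed start were not found in a GENCODE transcript of the gene, so these starts are less sure.
GABRA5: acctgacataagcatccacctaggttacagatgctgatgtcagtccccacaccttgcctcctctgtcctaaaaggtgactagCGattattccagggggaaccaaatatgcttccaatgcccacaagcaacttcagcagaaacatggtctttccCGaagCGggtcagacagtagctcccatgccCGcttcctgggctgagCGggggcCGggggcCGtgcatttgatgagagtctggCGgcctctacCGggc
GABRA3: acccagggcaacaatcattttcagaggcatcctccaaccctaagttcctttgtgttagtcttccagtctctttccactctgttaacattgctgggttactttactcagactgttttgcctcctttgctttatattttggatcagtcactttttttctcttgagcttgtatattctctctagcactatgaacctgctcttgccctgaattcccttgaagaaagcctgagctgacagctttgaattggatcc
GLRA2: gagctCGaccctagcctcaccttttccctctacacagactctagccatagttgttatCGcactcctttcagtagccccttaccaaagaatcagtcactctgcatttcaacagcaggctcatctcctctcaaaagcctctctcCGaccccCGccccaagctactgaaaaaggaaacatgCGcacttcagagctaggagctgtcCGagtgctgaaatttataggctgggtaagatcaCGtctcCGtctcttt
GLRA3: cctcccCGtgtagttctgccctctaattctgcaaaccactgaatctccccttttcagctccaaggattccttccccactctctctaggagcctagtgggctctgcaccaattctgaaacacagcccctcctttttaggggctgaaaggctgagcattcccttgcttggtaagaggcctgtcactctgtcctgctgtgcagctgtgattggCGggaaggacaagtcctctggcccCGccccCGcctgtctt
LHFPL4: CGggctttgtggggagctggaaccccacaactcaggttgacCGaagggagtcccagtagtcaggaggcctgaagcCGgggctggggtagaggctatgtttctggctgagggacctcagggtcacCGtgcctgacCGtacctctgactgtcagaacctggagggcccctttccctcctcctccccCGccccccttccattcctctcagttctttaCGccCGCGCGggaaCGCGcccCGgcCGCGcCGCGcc

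The GABRA3 window had 0 CG dinucleotides, as did 7.87% of the 32851 mouse windows of the same length, and those of GLRA3, GLRA2, GABRA5 and LHFPL4 had 4, 8, 9 and 17. GABBR2, also higher below the lesion, had 37, a count reached by 2.20% of all windows. Of the 250 bases of that window, 159 lie in an annotated exon. All 250 do for GPHN, which had 34 CG dinucleotides. The median was 10.5 over the 8 genes higher below the lesion, 19 over the other 10 analysed there with a window, 17 over all 24, and 6 over all mouse windows, which were not limited to genes active in the cord. Windows on chromosome 18 were left out. The mouse windows hold every listed start of a gene, whereas the gene sets hold only the first, so the sets are not fully alike. The letters GGGCGG, searched on both strands, were in 5 of the 8 (62.5%), 8 of the 10 (80.0%) and 32.7% of all windows. TATAAA on either strand was in 2 of the 8, namely GABRA3 and GLRA2, against 12.4% of all windows, while neither CACGTG nor TGACGTCA was in any of the 24 windows. Among windows of further listed starts, the second of SLC12A5 held CACGTG and GGGCGG, and the last of TRAK1 held TGACGTCA.

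The levels of the inhibitory synapse genes ranged from an FPKM of 4.64 to 1026, and the same pair of genes came first in all 4 groups. GLRB, the beta subunit that anchors glycine receptors, was highest, from 843 to 1026, and GABBR1, the GABA-binding subunit of the GABA-B receptor, second, from 766 to 868. GPHN, which encodes the scaffold gephyrin, and SLC12A5 followed, at 444 to 546 and 427 to 539. The lowest were GLRA3, from 4.64 to 7.42, and GABRG3, from 6.17 to 9.18. Whether neighbours in this order differed beyond their spread could not be computed. FPKM corrects for length, so genes can be set side by side within a group, but levels of the 2 sites were normalized separately by the authors.

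**Figure D1:**
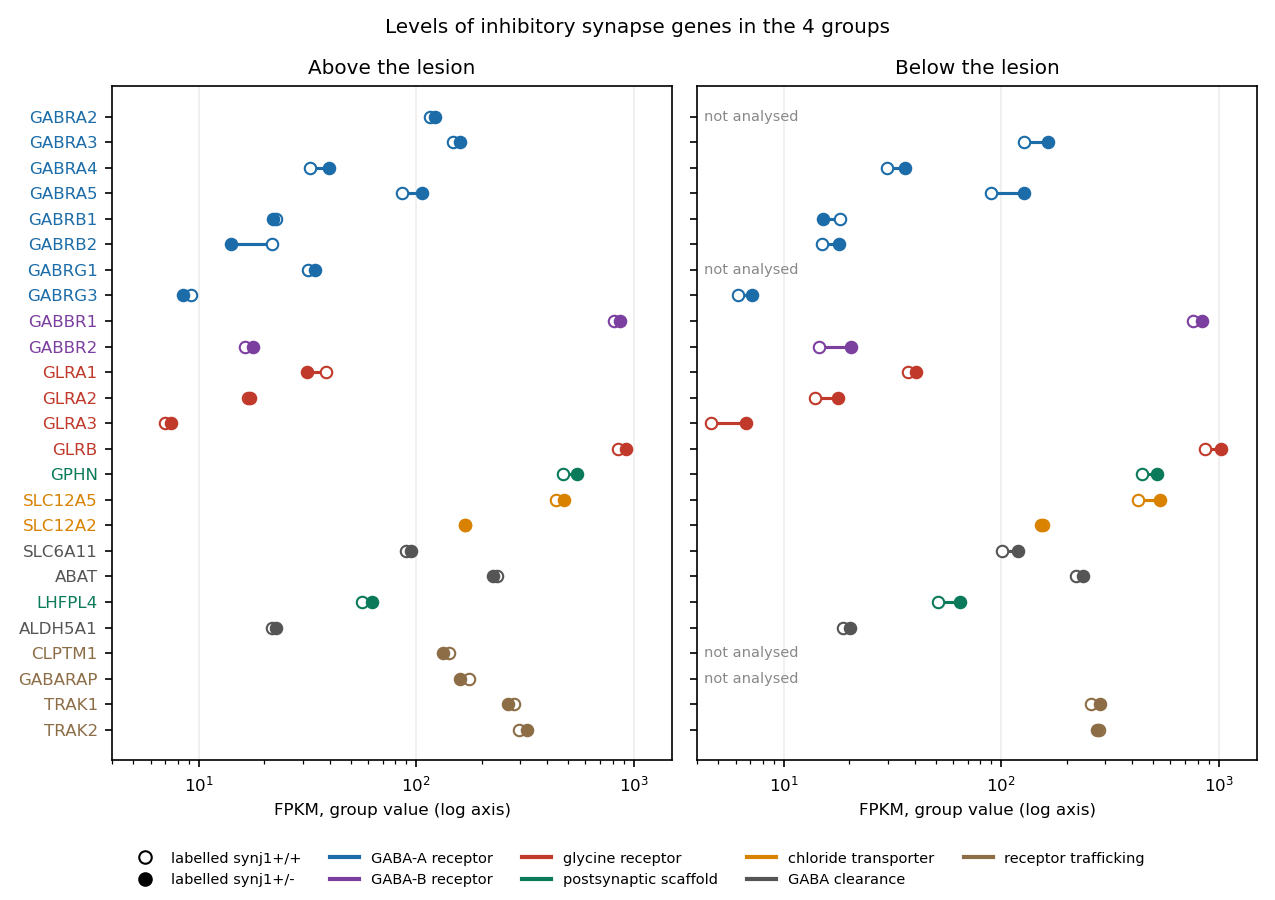
Group FPKM on a log axis of the 25 genes analysed above the lesion (left) and the 21 analysed below it (right); open points are the groups labelled synj1+/+, filled points those labelled synj1+/-, and colours mark roles. Each point is 1 value for 3 libraries with no error available, and GLRB and GABBR1 are at the right in all 4 groups, from 766 to 1026.

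Below the lesion, 8 of the 21 genes were at least 1.2-fold higher with the synj1+/- label and 0 were lower, where 12.6% of all genes analysed at that site were higher and 14.9% lower. The 8 were GABRA5, GABBR2, GLRA3, GABRA3, SLC12A5, LHFPL4, GLRA2 and GABRA4. The median log2 ratio was 0.23 over the 21 genes and 0.01 over all genes, whose quartiles were -0.15 and 0.16. In all, 18 of the 21 ratios were over 0, as were 6512 of the 12338 over all genes and 11 of 11 neuron markers. Those of the 21 under 0 were GABRB1, SLC12A2 and TRAK2. Above the lesion, 2 of 25 genes were higher, GABRA5 and GABRA4, and 2 were lower, GABRB2 and GLRA1, against 6.62% and 10.5% of all genes. The median there was 0.07 over the 25 genes and -0.00388 over all genes.

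**Figure D2:**
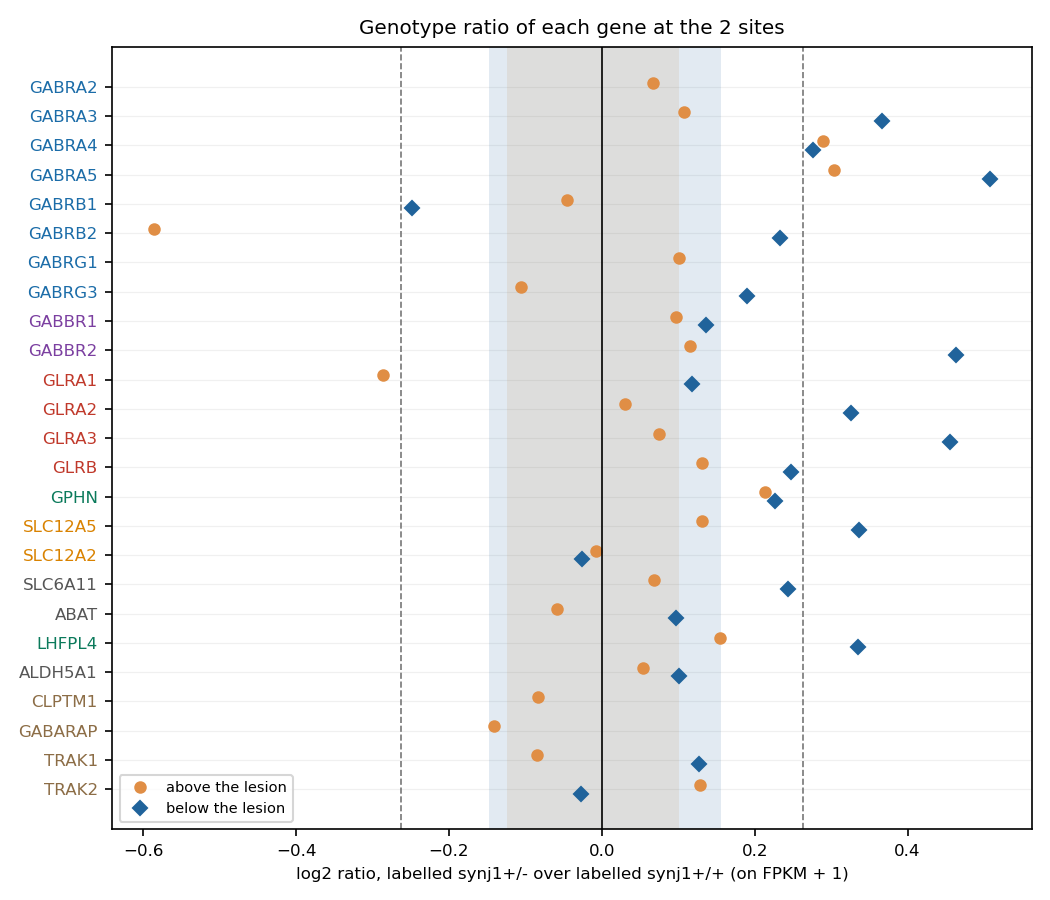
Log2 ratio of each gene, labelled synj1+/- over labelled synj1+/+ (on FPKM plus 1), above the lesion (circles) and below it (diamonds); shaded bands run from the lower to the upper quartile of all genes at each site and dashed lines mark 1.2-fold. Below the lesion 8 genes lie past the right line and 0 past the left one, while GABRB2 lies at -0.59 above and 0.23 below.

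Among GABA-A receptor subunits, the alpha subunits, which set much of a receptor's location and drug sensitivity, all had ratios over 0 as deposited. GABRA5, the alpha5 subunit known for extrasynaptic tonic inhibition, had an FPKM of 86.2 and 107 above the lesion, and of 89.3 and 127 below. Its log2 ratios were 0.30 and 0.51, at percentiles 95.3 and 98.1. GABRA4 was higher at both sites as well, at 32.4 and 39.8 above the lesion (0.29) and 29.7 and 36.2 below it (0.28). GABRA5 and GABRA4 were the members past 1.2-fold at both sites. The share of all genes past 1.2-fold in the same direction at both sites was not computed. Whether this pair exceeds that share is therefore not known. The calls of GABRA4 ended with a pseudocount of 10 (0.23 above and 0.22 below) and relative to the median neuron marker (0.22 and 0.09), and its call below also relative to the median of all genes (0.261). That of GABRA5 above ended relative to the neuron markers (0.24). GABRA3, the most abundant alpha subunit of the set and one that is prominent in the cord, was at 147 and 159 above the lesion (0.11) and at 127 and 164 below it (0.37). Relative to the median neuron marker, its call below the lesion ended (0.18). GABRA2, a synaptic alpha subunit linked to dampening of pain signals in the dorsal horn, was at 116 and 122 above the lesion (0.07). In the summed FPKM of GABRA3, GABRA4 and GABRA5, GABRA5 made up 32.4% and 34.9% above the lesion, and 36.3% and 38.9% below.

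The beta subunits, which carry the GABA-binding face together with alpha, and the gamma subunits, which link the receptor to the synapse, had ratios on both sides of 0. Above the lesion GABRB2 was at 21.6 and 14.1, a log2 ratio of -0.59 at percentile 1.93, whereas below it the values were 15.04 and 17.9, a ratio of 0.23 at percentile 84.8. GABRB1 was at 22.6 and 21.9 above (-0.04) and at 18.1 and 15.1 below (-0.25), the lowest ratio of the 21 genes there and just short of 1.2-fold. The FPKM of GABRB1 over that of GABRB2 was 1.04 and 1.55 above the lesion and 1.202 and 0.844 below it, so GABRB2 exceeded GABRB1 below the lesion with the synj1+/- label and in no other group. GABRG1 was at 31.8 and 34.2 above the lesion (0.10). GABRG3 was at 9.18 and 8.46 above (-0.11) and 6.17 and 7.17 below (0.19).

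GABA-A subunit genes lie in clusters, and genes of 1 cluster did not share 1 ratio. On chromosome 5, GABRG1 (70751047-70842617), GABRA2 (70958392-71095849), GABRA4 (71569734-71658308) and GABRB1 (71657921-72149572) are neighbours. GABRA4 and GABRB1 run in opposite directions and overlap by 388 bases, of which 46 are exonic in both. Reads there cannot be told apart without strand, but the 46 are only 0.756% of the exonic bases of GABRA4 and 0.332% of those of GABRB1. Below the lesion the log2 ratios of GABRA4 and GABRB1 were 0.28 and -0.25. On chromosome 7, GABRG3 (56716463-57387215) and GABRA5 (57407669-57591016) had ratios of 0.19 and 0.51 below the lesion and -0.11 and 0.30 above it. GABRB2 lies on chromosome 11 (42419515-42632591) and GABRA3 on chromosome X (72432676-72656919).

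Glycine receptors are the main inhibitory channels of ventral cord, where GLRA1 is the adult alpha subunit. GLRA1 was at 38.6 and 31.5 above the lesion (-0.29, percentile 9.24), and at 37.3 and 40.6 below it (0.12, percentile 69.0). Its ratio was thus of opposite sign at the 2 sites, and its call above ended with a pseudocount of 10 (-0.23). GLRA2, the alpha subunit that dominates before birth, was at 16.9 and 17.3 above the lesion (0.03) and 13.9 and 17.7 below it (0.33). GLRA3, found in the superficial dorsal horn where it takes part in pain modulation, was at 6.99 and 7.42 above (0.07) and 4.64 and 6.74 below (0.45). Both were called higher below the lesion, at percentiles 92.1 and 97.1, and both calls ended with a pseudocount of 10 (0.21 and 0.19), that of GLRA2 also relative to the median neuron marker (0.14). The beta subunit GLRB, which binds gephyrin, was at 843 and 923 above (0.13) and 864 and 1026 below (0.25), the latter just short of 1.2-fold. GLRA1 exceeded GLRA2 in all 4 groups, by 2.29 and 1.82 times above the lesion and 2.68 and 2.29 times below it.

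Of the GABA-B receptor pair, GABBR2, the subunit that couples to the G protein, differed more. Its FPKM was 16.3 and 17.7 above the lesion (0.12) and 14.5 and 20.4 below it (0.46, percentile 97.3). GABBR1 was at 811 and 868 above (0.10) and 766 and 842 below (0.14). The FPKM of GABBR1 was 49.7 and 48.9 times that of GABBR2 above the lesion and 52.8 and 41.3 times below it.

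The postsynaptic scaffold and chloride transporters were also on the higher side below the lesion, with an exception. GPHN, which clusters glycine and GABA-A receptors, was at 471 and 546 above the lesion (0.21) and 444 and 520.1 below it (0.23). LHFPL4, which tethers GABA-A receptors to neuroligin 2, was at 56.4 and 62.9 above (0.15) and 51.1 and 64.7 below (0.33). The neuronal chloride exporter SLC12A5 was at 439 and 480.3 above (0.13) and 427 and 539 below (0.34, percentile 92.8). Relative to the median neuron marker, the calls of LHFPL4 (0.15) and SLC12A5 (0.15) below the lesion ended. The chloride importer SLC12A2, which glia and vessels express as well as neurons, was at 168 and 167 above (-0.01) and 156 and 153 below (-0.03). The FPKM of SLC12A5 was thus 2.60 and 2.87 times that of SLC12A2 above the lesion and 2.74 and 3.53 times below it.

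The 3 members of GABA clearance and the 4 of receptor trafficking were within 1.2-fold wherever they were analysed. So were most genes of each site, with 6.62% higher and 10.5% lower above the lesion and 12.6% and 14.9% below it. SLC6A11 (GAT3), the GABA transporter of astrocytes, was at 89.8 and 94.2 above the lesion (0.07) and 101 and 119.6 below it (0.24). ABAT, the transaminase that breaks GABA down, was at 234 and 225 above (-0.06) and 222 and 237 below (0.10). ALDH5A1, the next enzyme of that route, was at 21.7 and 22.6 above (0.05) and 18.7 and 20.2 below (0.10). Of its exonic bases, 14.1% are shared with an antisense gene. Genes on the opposite strand also share 5.84% of the exonic bases of GLRA1, 4.98% of those of GABRA5 and 3.92% of those of GPHN. The part of such reads in the ratios was not tested. TRAK1 and TRAK2 are adaptors that join kinesin to cargo such as mitochondria and, for TRAK2, GABA-A receptors. TRAK1 was at 281 and 265 above (-0.08) and 259 and 283 below (0.13), and TRAK2 at 296 and 324 above (0.13) and 281 and 276 below (-0.03). CLPTM1, which retains GABA-A subunits inside the cell, was at 141 and 133 above the lesion (-0.08), and GABARAP, an autophagy-family protein that binds gamma subunits, at 174 and 158 (-0.14).

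The ratio below the lesion exceeded that above it for 17 of the 21 genes analysed at both sites, against 53.9% of all 12025 genes. The median of the difference in log2 ratio was 0.18 over the 21 genes and 0.28 over their 12 receptor subunits, against 0.02 over all genes. Neuron markers did likewise, with 11 of 11 over 0 and a median of 0.17, as did the wider list of inhibitory synapse genes described last, with 45 of 56 and a median of 0.15. GABRB2 differed most between the sites, by 0.82, followed by GLRA1 at 0.40, GLRA3 at 0.38 and GABBR2 at 0.35. GABRB1 (-0.20), TRAK2 (-0.16), SLC12A2 (-0.02) and GABRA4 (-0.01) had the lower ratio below. The level below over that above, which uses the same 4 values, was under 1 for 18 of the 21 genes with the synj1+/+ label. It was over 1 for 14.3% of the 21 and 49.8% of all genes, with a median log2 of -0.12 against -0.000799. With the synj1+/- label it was under 1 for 9 of the 21. It was then over 1 for 57.1% of the 21 and 55.5% of all genes, with a median of 0.04 against 0.02. Neuron markers were over 1 for 7 of 11 with the synj1+/+ label (median 0.02) and 9 of 11 with the synj1+/- label (0.14). In the wider list this held for 14 and 36 of 56. From the synj1+/+ to the synj1+/- label GABRB2 went from -0.50 to 0.32 and GLRA3 from -0.50 to -0.12. The sites were normalized separately by the authors, so these levels rest on that scaling.

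**Figure D3:**
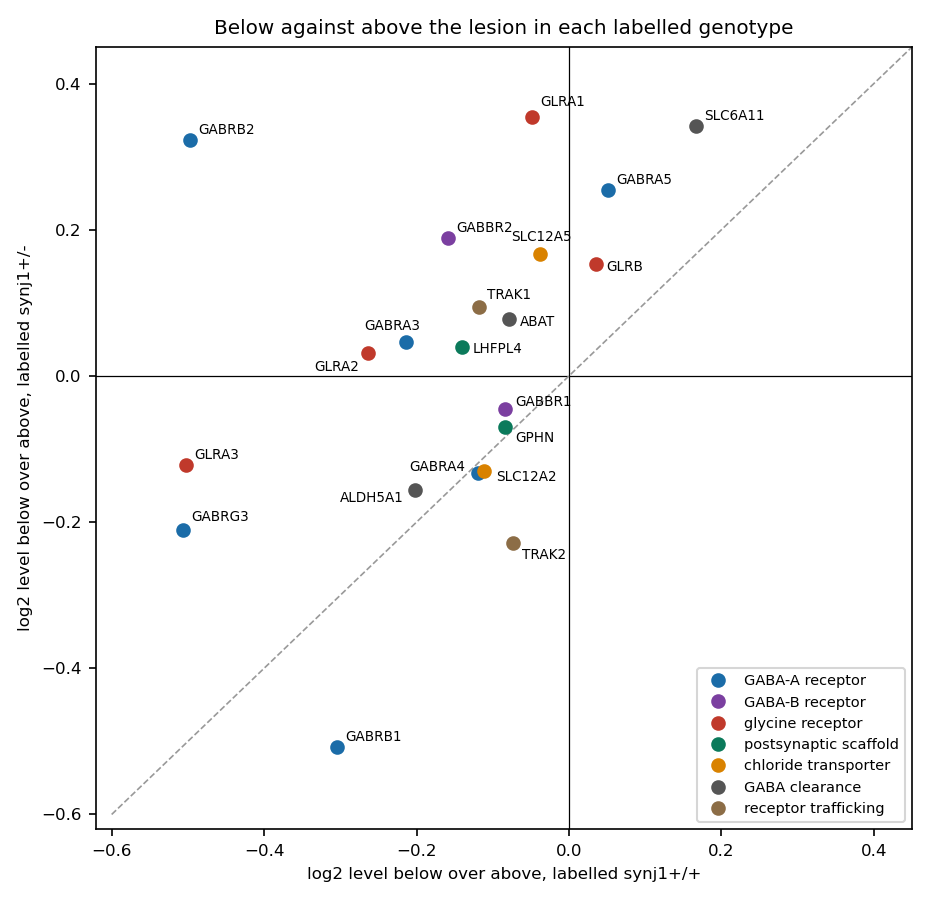
Log2 of the level below the lesion over that above it for the 21 genes analysed at both sites, in the groups labelled synj1+/+ (horizontal) and synj1+/- (vertical), with colours for roles and a dashed line of equal values. Of the 21 points 17 lie above the dashed line, and GABRB2 lies farthest from it, at -0.50 and 0.32.

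Markers of neurons had medians over 0 at both sites, as the inhibitory synapse genes did. All 7 inhibitory neuron markers (GAD1, GAD2, SLC32A1, SLC6A5, PAX2, LHX1 and LHX5) were higher below the lesion, with a median log2 ratio of 0.43 and a summed FPKM of 823 and 1092, while above it 0 of 7 were, with a median of 0.07 and sums of 976 and 1006. Of the general neuron markers, 3 of 11 were higher and 0 lower below the lesion (median 0.19, sums of 18285 and 22008), and 0 of 14 were higher or lower above it (0.07, 21252 and 23298). Excitatory neuron markers had medians of 0.15 above and 0.25 below, with 1 and 2 of 5 higher, and motor neuron markers 0.02 and 0.18, with 1 of 5 higher and 1 lower above and 0 of 4 either way below. Once ratios below the lesion were taken relative to the median neuron marker, GABRA5 (0.32), GABBR2 (0.28) and GLRA3 (0.27) were higher and GABRB1 (-0.43) lower, against 2.999% and 34.3% of all genes, and the median over the 21 genes was 0.05. On that scale GABBR1, GLRA1, ABAT, ALDH5A1 and TRAK1 turned to between -0.09 and -0.05 below the lesion, and GABRA2, GLRA2 and ALDH5A1 to between -0.04 and -0.000730 above it. In bulk tissue, fewer cells of a type and less RNA per cell cannot be told apart.

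Markers of non-neuronal cells did not share a direction. Those of fibroblasts, microglia and macrophages, astrocytes and oligodendrocyte precursors had medians under 0 at both sites, and erythroid markers had medians over 0. Fibroblast markers were lower for 6 of 6 below the lesion (median -2.86, sums of 374 and 60.8) and for 5 of 6 above it (-0.50, 41.5 and 33.0). Microglia and macrophage markers were lower for 5 of 5 below (-0.65, 578 and 399) and 5 of 8 above (-0.42, 939 and 702). Astrocyte markers were lower for 2 of 8 below (-0.18, 16178 and 12682) and 3 of 8 above (-0.21, 18029 and 14928). Oligodendrocyte precursor markers were lower for 1 of 4 below (-0.21) and 1 of 5 above (-0.13), and 0 of 4 oligodendrocyte markers were past 1.2-fold at either site (-0.12 above and 0.02 below). Endothelial markers were higher for 2 of 6 above (0.14) and lower for 1 of 6 below (-0.14). Erythroid markers were higher for 5 of 5 at both sites, with medians of 2.17 above and 0.37 below and sums of 248 and 1133 above and 629 and 825 below. The part of any of these marker lists in the ratios of the inhibitory synapse genes was not tested.

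**Figure D4:**
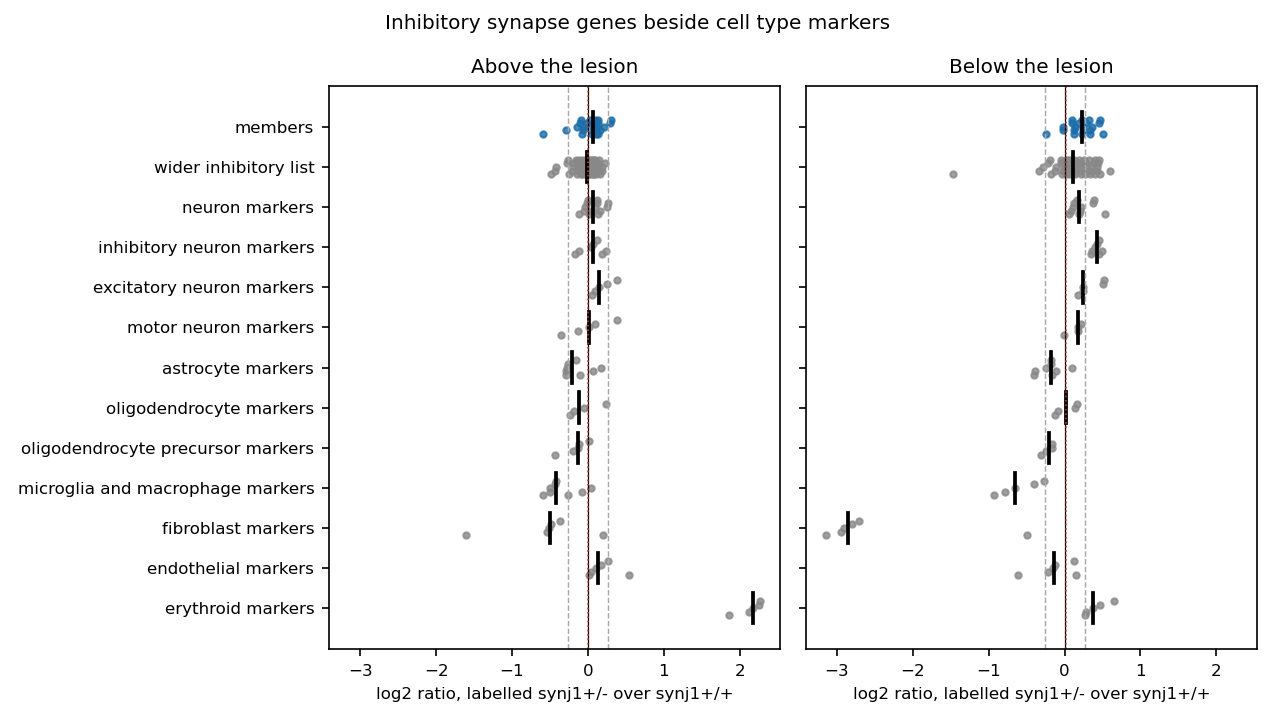
Log2 ratios, labelled synj1+/- over labelled synj1+/+, of single genes (points) in the inhibitory synapse set (members, blue), the wider inhibitory list and each marker list; black bars are medians, dotted red lines the median of all genes and dashed lines 1.2-fold. Below the lesion the inhibitory neuron markers lie to the right with a median of 0.43 and the fibroblast markers to the left with a median of -2.86.

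A wider list of 77 further genes of inhibitory synapses covered transmitter synthesis and transport, other receptor subunits, adhesion, gephyrin partners, regulators of chloride transport and GABA-B effectors. Below the lesion 17 of its 57 analysed genes were higher and 3 lower (median 0.11), a share of 29.8% and 5.26% against 12.6% and 14.9% of all genes. GAD1, GAD2, SLC32A1 and SLC6A5 stand both there and among the inhibitory neuron markers. Among those with the largest ratios were KCNJ6, a potassium channel opened by GABA-B receptors (8.62 and 13.6, 0.60), SLC32A1, the vesicular transporter of GABA and glycine (167 and 228, 0.45), RGS7, which speeds the end of GABA-B signals (143 and 194, 0.43), and HAP1, which takes part in GABA-A receptor transport (411 and 555, 0.43). The 3 lower were SLC6A13, a GABA transporter of meninges and vessels (14.8 and 4.70, -1.47), MOCS2, a molybdenum cofactor enzyme (155 and 122, -0.34), and PFN1, an actin regulator that binds gephyrin (455 and 373, -0.28). Above the lesion 0 of 64 were higher and 5 lower (median -0.01), and the 7.81% lower is under the 10.5% of all genes. The 5 were SLC4A8, a bicarbonate transporter (61.3 and 43.3, -0.49), KCNJ6 (16.4 and 11.9, -0.43), MDGA2, which restrains neuroligins (61.3 and 45.8, -0.41), WNK3, a kinase that regulates chloride transporters (55.1 and 45.3, -0.28), and ENAH, an actin regulator (843 and 702, -0.26). Opposite signs at the 2 sites were common: they were seen for 6 of the 21 members (28.6%), namely GABRB2, GLRA1, GABRG3, ABAT, TRAK1 and TRAK2, for 23 of 56 genes of the wider list (41.1%) and for 39.6% of all genes.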

How the data were processed

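RNA-seq was made from 12 libraries in 4 groups of 3, assigned from the genotype and location that the labels give. According to the methods of the study, reads of each site were reduced at random to the smallest library of that site before alignment and upper quartile normalization. The submitters' processing notes name STAR 2.5.4b, Cuffdiff 1.3.0 and GRCm38.p6. The library kit does not mark strand. The deposited table holds, per gene and site, 1 pooled FPKM for each genotype with 1 added by the authors (the lowest value is exactly 1), so 1 was subtracted to print FPKM, and it does not show the depth of each library. It also holds fold changes, p-values and q-values of the authors' own comparisons, which were not used, and neither was their shorter list of genes.

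Ratios, percentiles, counts past 1.2-fold and list medians were computed over all genes of a site with Python 3.11.15, numpy 2.4.6 and pandas 2.3.3, and the calculation was tested on simulated data. No test fits 1 value per group. Symbols were matched to RefSeq and GENCODE on GRCm38.p6. All analysed members were named, with SYNJ1 and, from the wider list, up to 5 genes per direction and site past 1.2-fold at a mean FPKM of at least 1. Not every gene that meets this rule is reported here. Members and lists were chosen with earlier results of these data known. Alternatives were other pseudocounts (0.1 and 10), minimum levels (1 and 10), folds (1.1 and 1.5) and centring on the median of all genes or of neuron markers.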

Additional observations from a re-analysis of the deposited data

Results flagged for a closer look

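GABRB2 and GLRA1 had opposite directions at the 2 sites. For GABRB2 the log2 ratio of FPKM, labelled synj1+/- over labelled synj1+/+, was -0.59 above the lesion and 0.23 below it, a difference of 0.82. For GLRA1 it was -0.29 and 0.12, a difference of 0.40. Each rests on 1 pooled value per group, and the difference between the sites was not tested. Relative to the median neuron marker, GLRA1 was at -0.35 above and -0.07 below, so its opposite sign was lost, and GABRB2 was at -0.65 above and near 0 below, at 0.05. In the wider inhibitory list the difference was 1.03 for KCNJ6 (-0.43 above and 0.60 below), 0.60 for MDGA2 (-0.41 and 0.19), 0.50 for SLC4A8 (-0.49 and 0.01), 0.50 for WNK3 (-0.28 and 0.22), 0.46 for RGS7 (-0.03 and 0.43) and -0.51 for MOCS2 (0.17 and -0.34), also not tested. Opposite signs were seen for 39.6% of all genes.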

How the results depend on the processing

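The table has 1 value for 3 libraries, so results without each replicate could not be computed. No paired analysis was possible because the table holds no columns of single libraries. With a pseudocount of 10, 1 gene was higher and 1 lower above the lesion and 5 were higher below it, against 2.62%, 5.14% and 6.2004% of all genes. Centring on the neuron markers gave 0 higher and 2 lower above the lesion (GABRB2 and GLRA1), against 3.97% and 15.9% of all genes. Below the lesion it gave 3 higher and 1 lower, against 2.999% and 34.3% of all genes, and a median of 0.047. At 1.1-fold 4 genes were higher and 3 lower above the lesion, against 19.1% and 23.0% of all genes, while 13 were higher and 1 lower below it, against 27.5% and 26.1% of all genes below. At 1.5-fold 0 were higher and 1 lower above the lesion and 0 were higher below it, against 0.791%, 1.94% and 1.16% of all genes. The remaining settings (a pseudocount of 0.1, minimum levels of 1 and 10, centring on all genes, genes analysed at both sites, and means in place of medians) kept each count within 1.5 times and each median within 0.1. Of 421 log2 ratios of single genes under these alternatives, 378 shifted by less than 0.1 and 43 by more, and 0 of the called ratios changed sign. A minimum level cannot shift a ratio (71 and 66 of the 378). Centring moves all genes of a site by the same amount, which for the median of all genes (71 of the 378) was far under 0.1. Centring on neuron markers gave 34 of the 43 and a further 37 of the 378 in the same way. The 378 are therefore no measure of how stable the ratios are.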
